A study of Mus musculus with 12 samples.

Results

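The 8 genes described here make up the core of MHC class II antigen presentation in the mouse: the transactivator Ciita, the surface chains H2-Aa, H2-Ab1 and H2-Eb1, the invariant chain Cd74, and the peptide loading genes H2-DMa, H2-DMb1 and H2-DMb2. They were chosen by name and read in all 3 deposited comparisons against isotype control. All 8 were among the 48709 listed genes and among the 17833 genes that the authors' tables tested. RNA came from CD8 T cells of the draining lymph nodes of wild type C57BL/6 mice, at postnatal day 91, that carried the prostate tumour line TRAMP-C2. The sort kept live cells positive for CD45, CD3, CD8 and Spas-1 and negative for Spas-2, that is, T cells specific for Spas-1, an antigen of TRAMP tumours. The arms were Isotype, anti-CTLA-4, then anti-PD-1 DANA, then Combo (both antibodies together), with 3 libraries each and 12 in all; values given in turn follow this order. Per the sample labels the antibodies were dosed on days 3, 6 and 9 (the series text has day 8 for the last), and nodes were taken on day 28. Cells of the 5 mice of an arm were pooled before being split in triplicate, so p-values measure the spread between splits of 1 pool, and the arm and its pool of mice cannot be told apart.

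MHC class II molecules are pairs of an alpha and a beta chain that show peptides from the endosomal route to CD4 T cells. The invariant chain Cd74 fills the groove of a new class II molecule and steers it to endosomes, where H2-DM, a class II-like molecule of an alpha chain (H2-DMa) and a beta chain (H2-DMb1 or H2-DMb2), helps exchange the last fragment of Cd74 for other peptides. B cells, dendritic cells and macrophages express these genes constitutively under the coactivator Ciita, which does not bind DNA itself and is held at class II promoters by factors bound to the X and Y boxes. Mouse T cells, unlike activated human T cells, are known to make little or no class II of their own.

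The X and Y boxes were read from RefSeq promoters of 300 bases (GRCm38.p6). Promoters of 5 of the 8 genes were used: H2-Aa, H2-DMa, H2-DMb1, H2-DMb2 and H2-Eb1. The stretches that hold both boxes are shown because Ciita acts at these sequences, and because the 2 DMb copies resemble each other. Each runs 5′ to 3′ on the strand of its gene. The first block of capitals marks the X box region: AACNGATGATGCT, the longest stretch that the promoters of H2-DMb1, H2-DMb2 and H2-Eb1 share with at most 1 differing base, or in H2-Aa the octamer TGACGTCA of the kind found in the second part of the X box. The second block is the Y box core GATTGG.
H2-DMb2: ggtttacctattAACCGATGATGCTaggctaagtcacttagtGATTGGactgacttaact
H2-DMb1: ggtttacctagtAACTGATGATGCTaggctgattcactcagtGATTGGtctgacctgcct
H2-Eb1: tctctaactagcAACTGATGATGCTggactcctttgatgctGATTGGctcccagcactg
H2-Aa: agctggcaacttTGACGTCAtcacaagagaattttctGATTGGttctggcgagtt
They lie at chr17:34145116-34145175 (plus strand, H2-DMb2), chr17:34153087-34153146 (plus strand, H2-DMb1), chr17:34305766-34305824 (plus strand, H2-Eb1) and chr17:34287855-34287909 (minus strand, H2-Aa). The gap between the blocks was 17 bases in both DMb genes and in H2-Aa, and 16 in H2-Eb1. Of 32851 promoters of the same length, 5292 (16.1%) held GATTGG on either strand, 588 (1.79%) held TGACGTCA and 5 (0.0152%) held AACNGATGATGCT. The last stretch and the Y core stood together on the gene's strand in 3 promoters (0.00913%), those of H2-DMb1, H2-DMb2 and H2-Eb1, which hold the stretch by the way it was chosen. The letters searched were set after these promoters had been read, so the shares are a description, and a match is not shown to be a bound site. The X box motifs and the Y core do not overlap in any stretch shown. The H2-DMa promoter used held the Y core and neither of the X box motifs searched. It begins at chr17:34125268, well upstream of the gene start at 34135182 in the authors' coordinates. It may therefore not be the promoter of the transcripts measured, and it does not show that H2-DMa lacks an X box.

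The values are the larger of the 2 group means of each comparison, in RPKM (reads per kilobase of exon, scaled to the size of the library), and a log2 fold change of treated over Isotype with its p-value. The lower mean of a pair is listed only where another table gives it; otherwise it was estimated here from the fold change and is called an estimate. A ± after a fold change is the standard error implied by the p-value, and a call is an adjusted p (the authors' false discovery rate over all listed genes) under 0.05. The fold changes lie below the ratios of the RPKM means by 0.94 on the log2 scale for anti-CTLA-4, by 0.82 with anti-PD-1 DANA and by 0.11 with Combo. Values with that shift added are given as being on the library size scale.

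None of the 8 class II genes was called in any of the 3 comparisons of the authors' deposited tables. The share of all tested genes called there was 4.23% (754 genes) with anti-CTLA-4, 3.75% (669 genes) with anti-PD-1 DANA and 7.53% (1343 genes) with Combo. At an unadjusted p under 0.05, anti-CTLA-4 had 2 members higher (Ciita and H2-DMb2) and 1 lower (H2-DMb1), where 22.9% of all tested genes passed, 14.8% higher and 8.14% lower. For anti-PD-1 DANA, 1 was higher (H2-DMb2) and 4 were lower (Cd74, H2-Ab1, H2-Eb1 and H2-DMb1), where 23.1% of all tested genes passed, 15.3% higher and 7.77% lower. For Combo, 2 were higher (Ciita and H2-DMb2) and 2 lower (Cd74 and H2-DMa), where 23.2% of all tested genes passed, 12.4% higher and 10.8% lower. In the authors' deposited tables the median log2 fold change of the members was 0.52, -1.21 and -0.31 for the 3 treatments in turn, against -0.62, -0.45 and -0.42 over all tested genes. On the library size scale the members' medians were 1.47, -0.40 and -0.20, against 0.33, 0.36 and -0.31 over all tested genes. On that scale 1 member was called for anti-CTLA-4 (Ciita), 1 for anti-PD-1 DANA (H2-DMb2) and 0 for Combo, where 7.67%, 6.82% and 7.62% of tested genes were. The 3 comparisons share the Isotype libraries, so they are not independent of each other.

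**Figure D1:**
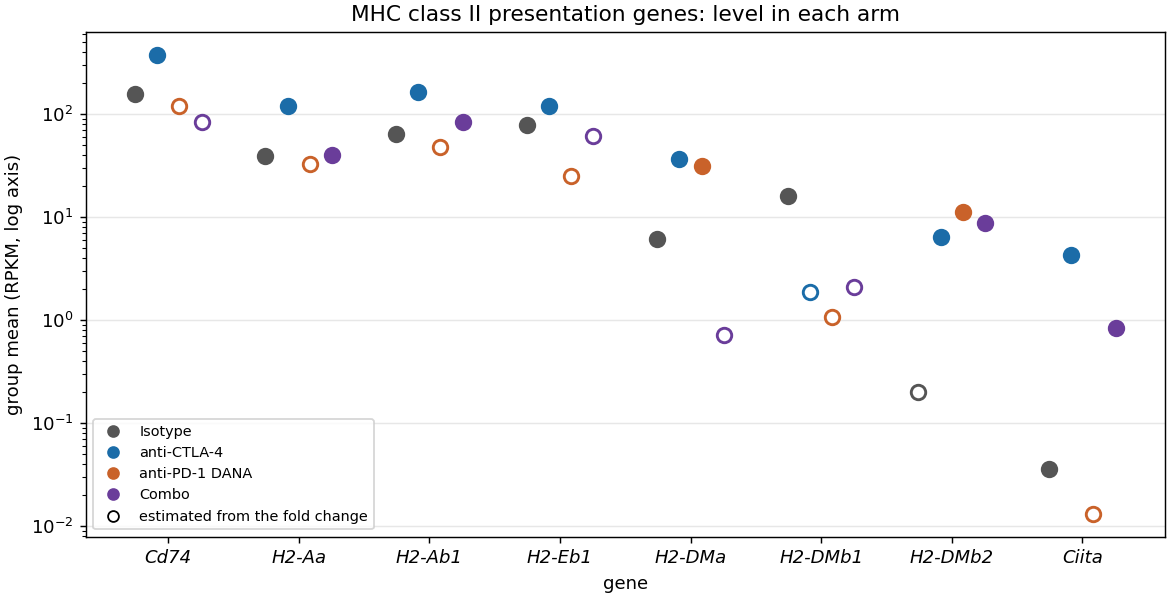
Group mean in RPKM (log axis) of the 8 class II genes in the 4 arms; filled points are means in the authors' tables and open points are estimates from the fold change. For Cd74 and the 3 surface chains the anti-CTLA-4 mean is the highest of the arms; these 4 genes stand above the other 4 in every arm but anti-PD-1 DANA, where H2-DMa (31.3 RPKM) is above H2-Eb1 (25.2).

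Ciita, at chr16:10488178-10527564 on the plus strand (GRCm38, the authors' coordinates), was the least abundant of the 8 genes in the Isotype arm. Its mean was 0.0355 RPKM in Isotype, 4.26 in anti-CTLA-4 and 0.836 in Combo in the authors' deposited tables, and 0.0132 in anti-PD-1 DANA as an estimate. The whole reads behind 3 of these means could be recovered, although no library can be tied to its replicate number, so libraries are named by their size within the arm. In Isotype, Ciita had 5 reads in the largest library, 10 in the middle one and 0 in the smallest. In anti-CTLA-4 it had 2 reads in the largest library, 92 in the middle one and 916 in the smallest. In Combo it had 2, 14 and 312 reads in the same order. The smallest library held 92.7% of the summed RPKM of Ciita in anti-CTLA-4 and 96.3% in Combo, while the largest library of each of these arms was below the highest Isotype library.

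In RPKM, Ciita stood at 0.0290, 0.0776 and 0 in the largest, middle and smallest Isotype libraries (mean 0.0355 ± 0.0392, SD, n = 3). It stood at 0.0129, 0.917 and 11.8 in anti-CTLA-4 (4.26 ± 6.58, SD, n = 3) and at 0.00894, 0.0833 and 2.41 in Combo (0.836 ± 1.37, SD, n = 3). The library ranges overlapped in every pair of these arms. A two-sided exact permutation test over libraries gave p = 0.3 for anti-CTLA-4 against Isotype and p = 0.4 for Combo against Isotype, where 3 libraries against 3 cannot go below 0.1. Without its smallest library the mean of Ciita was 0.465 RPKM in anti-CTLA-4 and 0.0461 in Combo. Among other genes of like read total, 21.1% of 1436 genes in anti-CTLA-4 and 67.8% of 825 genes in Combo had 80% or more of their signal in 1 library, so such unevenness was common, most of all in Combo.

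In the fits over all genes, the log2 fold change of Ciita in the authors' deposited table was 5.94 ± 1.98 with anti-CTLA-4 (adjusted p = 0.102). In the authors' deposited tables it was 4.44 ± 1.98 with Combo (adjusted p = 0.362) and -2.25 ± 2.08 with anti-PD-1 DANA (adjusted p = 1.0). The anti-CTLA-4 value passed when the authors' p-values were adjusted over the tested genes alone (adjusted p = 0.0375) and on the library size scale (6.89, adjusted p = 0.0261). The Isotype arm rests on 15 reads of Ciita in all, so the size of these folds depends on very few counts.

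**Figure D2:**
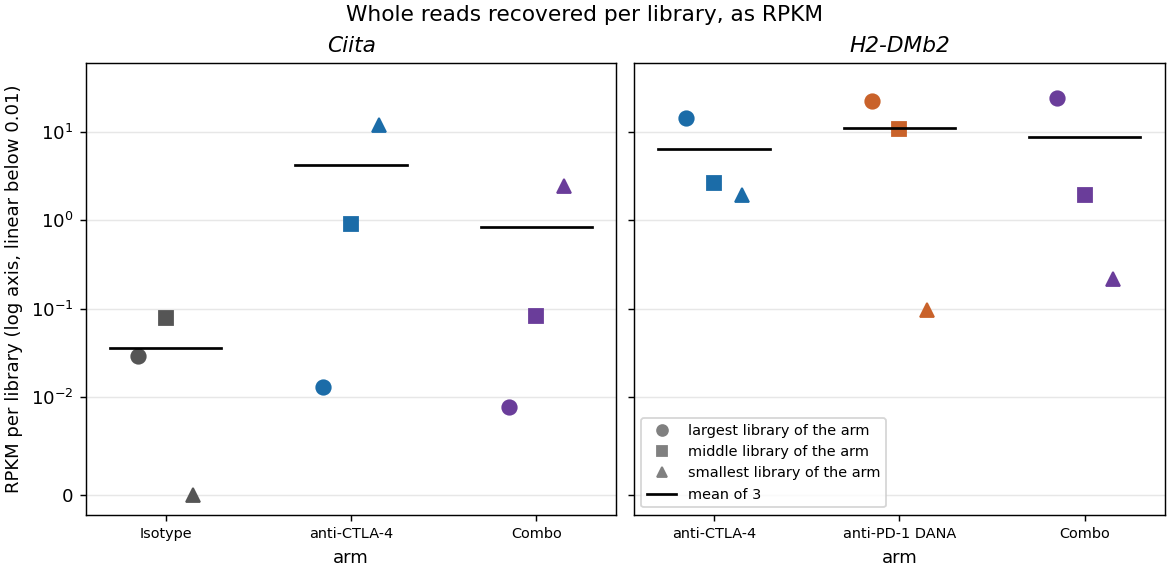
RPKM of Ciita (left) and H2-DMb2 (right) in each library from recovered whole reads, on an axis that is logarithmic above 0.01 and linear below; bars mark the mean of 3 libraries. Ciita is highest in the smallest library of anti-CTLA-4 (11.8 RPKM) and Combo (2.41 RPKM), and H2-DMb2 is highest in the largest library of each treated arm.

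The surface chains were far more abundant than their transactivator. H2-Aa (chr17:34282744-34287827, minus strand), the alpha chain of the I-A molecule, had a mean of 39.6 RPKM in Isotype, 121 in anti-CTLA-4 and 39.9 in Combo in the authors' deposited tables, and an estimate of 33.0 in anti-PD-1 DANA. H2-Ab1 (chr17:34263209-34269418, plus strand), the beta chain of I-A, had 64.3 in Isotype, 165 in anti-CTLA-4 and 83.9 in Combo in the authors' deposited tables, and an estimate of 48.1 in anti-PD-1 DANA. Both chains of I-A were thus highest in anti-CTLA-4 and lowest, by estimates, in anti-PD-1 DANA. H2-Eb1 (chr17:34305877-34316199, plus strand), the beta chain of I-E, had 77.8 in Isotype and 121 in anti-CTLA-4 in the authors' deposited tables, with estimates of 61.2 in Combo and 25.2 in anti-PD-1 DANA. C57BL/6 mice make no I-E alpha chain, and the entry for that locus, H2-Ea-ps, was listed at 0 in all 3 of the authors' deposited tables.

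Relative to Isotype the mean of H2-Aa in anti-CTLA-4 was 3.06-fold, of H2-Ab1 2.57-fold and of H2-Eb1 1.56-fold in the RPKM values of the authors' deposited tables. The log2 fold changes in the authors' deposited table were 0.63 ± 0.76 for H2-Aa, 0.41 ± 0.58 for H2-Ab1 and -0.36 ± 0.80 for H2-Eb1 (adjusted p = 1.0 for all 3). For H2-Eb1 the direction depends on the scaling: the library size scale gave 0.59, and the ratio of its means is above 1. For anti-PD-1 DANA the values in the authors' deposited table were -1.08 ± 0.76 for H2-Aa (adjusted p = 1.0), -1.23 ± 0.58 for H2-Ab1 (adjusted p = 0.456) and -2.44 ± 0.80 for H2-Eb1 (adjusted p = 0.0941). H2-Eb1 passed when the authors' p-values were adjusted over tested genes alone (adjusted p = 0.0345) and did not on the library size scale (-1.62, adjusted p = 0.512). For Combo all 3 chains lay within 1 standard error of no difference, at -0.17 ± 0.76, 0.28 ± 0.58 and -0.45 ± 0.80 in the authors' deposited table.

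Cd74 (chr18:60803848-60812646, plus strand) was the most abundant of the 8 genes in Isotype, anti-CTLA-4 and anti-PD-1 DANA, while in Combo its estimate and the mean of H2-Ab1 were too close to order. Its mean was 157 RPKM in Isotype and 373 in anti-CTLA-4 in the authors' deposited tables, with estimates of 121 in anti-PD-1 DANA and 84.4 in Combo. Its log2 fold change in the authors' deposited tables was 0.32 ± 0.46 (adjusted p = 1.0), -1.19 ± 0.46 (adjusted p = 0.209) and -1.0 ± 0.46 (adjusted p = 0.407) for the 3 treatments in turn. Cd74 had the smallest standard error of the 8 genes, and its differences still did not pass. With the authors' errors and the library size scale they were 1.26 (adjusted p = 0.131), -0.38 (adjusted p = 1.0) and -0.89 (adjusted p = 0.609). Its anti-CTLA-4 mean was 2.38-fold that of Isotype in RPKM, between the folds of H2-Eb1 and H2-Ab1.

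**Figure D3:**
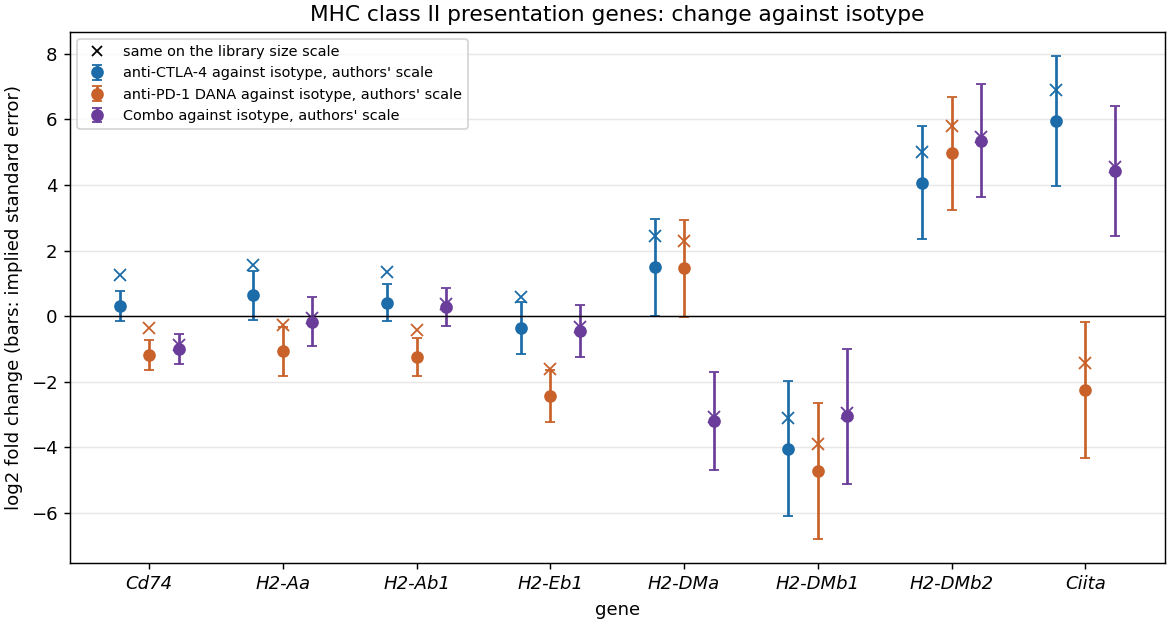
Log2 fold change of the 8 class II genes against Isotype for each treatment on the authors' scale (points, with bars of 1 implied standard error) and on the library size scale (crosses). The anti-CTLA-4 crosses lie 0.94 above their points, which takes H2-Eb1 across 0.

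The levels of the peptide loading genes spanned wider ranges over the arms than those of the chains and Cd74. H2-DMa (chr17:34135182-34139101, plus strand), the alpha chain of H2-DM, had a mean of 6.09 RPKM in Isotype, 36.4 in anti-CTLA-4 and 31.3 in anti-PD-1 DANA in the authors' deposited tables, and an estimate of 0.713 in Combo. Each single antibody thus stood above Isotype and the combination below it. Its log2 fold changes in the authors' deposited tables were 1.49 ± 1.48 (adjusted p = 1.0), 1.46 ± 1.48 (adjusted p = 1.0) and -3.20 ± 1.49 (adjusted p = 0.424) for the 3 treatments in turn. None of these passed the test.

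H2-DMb1 (chr17:34153072-34160230, plus strand) and H2-DMb2 (chr17:34143307-34151553, plus strand), neighbouring copies of the beta chain gene, stood on opposite sides of Isotype. H2-DMb1 had a mean of 16.1 RPKM in Isotype in the authors' deposited tables and estimates of 1.87 in anti-CTLA-4, 1.07 in anti-PD-1 DANA and 2.08 in Combo. H2-DMb2 had an estimate of 0.202 in Isotype and means of 6.34 in anti-CTLA-4, 11.1 in anti-PD-1 DANA and 8.84 in Combo in the authors' deposited tables. H2-DMb2 made up 1.23% of the sum of the pair in Isotype, 77.2% in anti-CTLA-4, 91.2% in anti-PD-1 DANA and 80.9% in Combo. The sum of the pair was 16.3 RPKM in Isotype, 8.22 in anti-CTLA-4, 12.2 in anti-PD-1 DANA and 10.9 in Combo, and so varied much less than either copy.

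In the authors' deposited tables the log2 fold changes of H2-DMb1 were -4.05 ± 2.06 (adjusted p = 0.592), -4.73 ± 2.06 (adjusted p = 0.353) and -3.06 ± 2.06 (adjusted p = 1.0) for the 3 treatments in turn. Those of H2-DMb2 in the authors' deposited tables were 4.08 ± 1.73 (adjusted p = 0.310), 4.97 ± 1.73 (adjusted p = 0.128) and 5.35 ± 1.73 (adjusted p = 0.0629). With the authors' p-values, H2-DMb2 passed for anti-PD-1 DANA (adjusted p = 0.0468) and Combo (adjusted p = 0.0230) when adjusted over tested genes alone, and for anti-PD-1 DANA on the library size scale (5.79, adjusted p = 0.0390). The standard error of H2-DMb1 for Combo was larger than that of 96.2% of 2717 genes of like level (median 1.35). The spliced transcripts of the 2 copies are 83.3% identical over 1423 aligned bases, with a longest identical run of 221 bases, and 27.2% of the 50-base windows of H2-DMb1 occur unchanged in H2-DMb2. How reads that fit both copies were assigned is not given in the sources used here, so the split between the copies is uncertain.

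Reads per library could be recovered for H2-DMb2 in the 3 treated arms. In anti-CTLA-4 it had 731, 86 and 49 reads in the largest, middle and smallest libraries, or 14.5, 2.63 and 1.95 RPKM (mean 6.34 ± 7.03, SD, n = 3). In anti-PD-1 DANA it had 1233, 493 and 4 reads, or 22.6, 10.8 and 0.0965 RPKM (11.1 ± 11.2, SD, n = 3). In Combo it had 1774, 106 and 9 reads, or 24.4, 1.94 and 0.214 RPKM (8.84 ± 13.5, SD, n = 3). The largest library held 75.9%, 67.5% and 91.9% of the summed RPKM in these arms, and in anti-PD-1 DANA and Combo the smallest library was near the estimated Isotype mean. Without its largest library the mean of H2-DMb2 was 2.29 RPKM in anti-CTLA-4, 5.43 in anti-PD-1 DANA and 1.08 in Combo. Among other genes of like read total, 24.9%, 12.1% and 48.3% had 80% or more of their signal in 1 library of these arms. Between treated arms the libraries overlapped, with p = 0.7 for anti-PD-1 DANA against anti-CTLA-4 and p = 1 for Combo against either antibody in two-sided exact permutation tests (n = 3 libraries per arm, smallest possible p = 0.1).

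**Figure D4:**
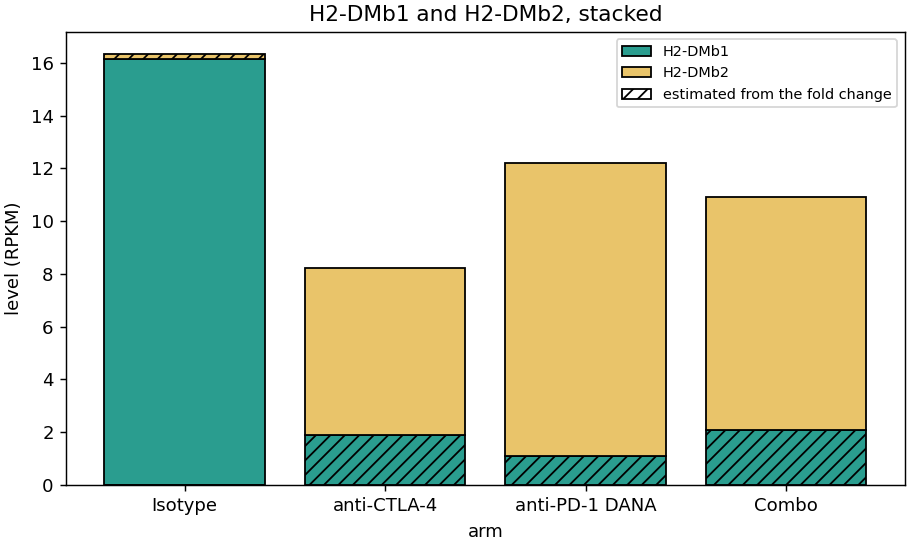
Stacked RPKM of H2-DMb1 and H2-DMb2 in each arm; hatched bars are estimates from the fold change. Nearly all of the pair is H2-DMb1 in Isotype, and H2-DMb2 makes up 77.2% to 91.2% of it in the treated arms.

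The treatments were also compared with each other through differences of their fold changes, in which the shared Isotype arm cancels. This gave 24 comparisons of members, adjusted over all listed genes, and none was called. Of all tested genes 0.903% (161 genes) were called for Combo against anti-CTLA-4, 0.449% (80 genes) for Combo against anti-PD-1 DANA, and 0 genes for anti-CTLA-4 against anti-PD-1 DANA. At an unadjusted p under 0.05, anti-CTLA-4 against anti-PD-1 DANA had 5 members, all higher in anti-CTLA-4, where 6.46% of tested genes passed by this normal test. From the authors' fold changes, they were Ciita (8.19, 95% interval 4.21 to 12.2, adjusted p = 0.335), H2-Eb1 (2.08, 0.52 to 3.65), H2-Aa (1.71, 0.22 to 3.19), H2-Ab1 (1.65, 0.52 to 2.78) and Cd74 (1.51, 0.61 to 2.41, adjusted p = 0.800), with an adjusted p of 1.0 for the chains. The 3 peptide loading genes had intervals that span 0, from -2.88 to 2.94 for H2-DMa, -3.37 to 4.72 for H2-DMb1 and -4.28 to 2.49 for H2-DMb2.

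Against anti-CTLA-4, Combo had 2 members at an unadjusted p under 0.05, where 12.5% of tested genes passed. As differences of the authors' fold changes, Cd74 was at -1.32 (95% interval -2.22 to -0.42, adjusted p = 0.319) and H2-DMa at -4.69 (-7.60 to -1.78, adjusted p = 0.187). Both passed when the authors' fold changes were put on the library size scale, with Cd74 at -2.16 (adjusted p = 0.00262) and H2-DMa at -5.53 (adjusted p = 0.0382), where 1.63% of tested genes were called. Against anti-PD-1 DANA, Combo had 4 such members, where 11% of tested genes passed, and 0 members were called on the library size scale, where 1.28% of tested genes were. As differences of the authors' fold changes, H2-DMa was at -4.66 (-7.57 to -1.75, adjusted p = 0.229), while Ciita was at 6.69 (2.71 to 10.7, adjusted p = 0.178), H2-Eb1 at 1.99 (0.42 to 3.55, adjusted p = 0.681) and H2-Ab1 at 1.51 (0.38 to 2.65, adjusted p = 0.574). The intervals of the remaining members span 0 in both contrasts, and those of the DMb copies run from -3.05 to 5.03 and from -2.11 to 4.66 against anti-CTLA-4, too wide to show that the arms were alike.

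Of 23 further genes of the class II pathway, the authors' deposited tables called 2 higher and 1 lower in anti-CTLA-4, 0 higher and 1 lower in anti-PD-1 DANA, and 0 higher and 1 lower in Combo. The shares of all tested genes called higher and lower were 2.74% and 1.49% in anti-CTLA-4, 2.43% and 1.32% in anti-PD-1 DANA, and 3.94% and 3.59% in Combo. In the authors' deposited tables H2-Oa, the alpha chain of H2-DO, which restrains H2-DM mainly in B cells, rose by 6.95 ± 1.78 on the log2 scale with anti-CTLA-4 (adjusted p = 0.0150) and was at 6.00 ± 1.78 with anti-PD-1 DANA (adjusted p = 0.0523). It had 2, 728 and 589 reads in the largest, middle and smallest anti-CTLA-4 libraries, so its signal lay in the libraries where that of H2-DMb2 was low. Its partner H2-Ob had 35.6 RPKM in Isotype and was at -1.19 ± 1.14, -2.36 ± 1.14 and -2.79 ± 1.14 in the 3 comparisons of the authors' deposited tables, none called. For Rfx5, a subunit of the X box factor, the authors' deposited table has a call: it fell by 7.64 ± 2.05 in Combo (adjusted p = 0.0137), from an Isotype mean of which 98.1% came from 1 library. Cd83, which keeps class II molecules at the surface of presenting cells, by the authors' deposited table fell by 9.07 ± 1.70 with anti-PD-1 DANA (adjusted p = 0.000363). Of the receptors for class II in the authors' deposited table, Cd4 rose by 8.23 ± 2.36 with anti-CTLA-4 (adjusted p = 0.0390) and Lag3 fell by 8.20 ± 1.46 (adjusted p = 0.000165). Ctss, the protease that trims the invariant chain, stood at 69.2 RPKM in Isotype, 110 in anti-CTLA-4 and 80.3 in anti-PD-1 DANA in the authors' deposited tables, with no call.

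Interferon-gamma induces Ciita in many cell types, with Irf1 among the factors that act on it. Of 9 genes of this route the authors' deposited tables called none higher, where 2.74%, 2.43% and 3.94% of all tested genes were called higher in turn. In the authors' deposited table Irf1 fell by 2.22 ± 0.55 with Combo (adjusted p = 0.00665). Ifng itself, at 14.2 RPKM in Isotype, was at -1.91 ± 1.86, -2.56 ± 1.86 and -0.42 ± 1.86 in the 3 comparisons of the authors' deposited tables. In each comparison 8 of the 9 genes had a negative fold change, as did 10592, 10073 and 10172 of the 17833 tested genes in turn. On the library size scale 4, 2 and 1 of the 9 were positive, as were 11777, 11767 and 7903 of the tested genes. Of 13 class I genes the authors' deposited tables called 0 for either antibody alone, where 4.23% and 3.75% of all tested genes were called. For Combo 7.53% of all tested genes were called. In the authors' deposited table for Combo, Psmb9 rose by 2.65 ± 0.81 (adjusted p = 0.0404), while H2-D1 fell by 1.25 ± 0.34 (adjusted p = 0.0148) and Tap1 fell by 2.26 ± 0.52 (adjusted p = 0.00278). At an unadjusted p under 0.05, 6 class I genes were lower and 0 higher in anti-CTLA-4, 4 lower and 0 higher in anti-PD-1 DANA, and 7 lower and 1 higher in Combo, where the shares of all tested genes that were lower were 8.14%, 7.77% and 10.8%. The direction depends on the scaling: the class I median was -0.93, -0.66 and -0.75 on the authors' scale and 0.01, 0.15 and -0.65 on the library size scale, where 7, 8 and 4 of the 13 genes were positive.

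The CD8 sort should hold few cells that make class II, so marker genes of such cells were read beside the members. RNA from fewer cells of a type and less RNA per cell cannot be told apart in these bulk libraries. Sums of levels below, and their folds, are in RPKM and not on the authors' scale. Ratios of RPKM lie above the authors' fold changes by 0.94, 0.82 and 0.11 on the log2 scale for the 3 treatments in turn. The summed level of the 8 class II genes was 361 RPKM in Isotype, 829 in anti-CTLA-4 (2.30-fold of Isotype), 271 in anti-PD-1 DANA (0.750-fold) and 282 in Combo (0.781-fold). That of 24 B cell markers was 434, 926 (2.14-fold), 492 (1.13-fold) and 292 (0.672-fold) in the same order, with estimates among the values of both lists and no marker at 0. In anti-PD-1 DANA the class II sum was thus below Isotype and the B cell sum above it. The B cell sum there leaned on Ighm, at 134 RPKM in Isotype and 202 in anti-PD-1 DANA. On the authors' scale 9 of the 24 B cell markers were positive in that arm and 15 negative (median -0.76). On the library size scale 12 were positive (median 0.06). Anti-CTLA-4 also had the highest sum of the class I genes (5830 RPKM, 1.38-fold of Isotype) and of the other class II pathway genes (769 RPKM, against 730.0 in Isotype). Most of the higher class I sum was B2m, at 1870 RPKM in Isotype and 3361 in anti-CTLA-4. Of the 13 class I genes 7 were positive there on the library size scale, and 2 on the authors' scale. Among the other class II pathway genes, Mif alone stood at 254 RPKM in Isotype and 349 in anti-CTLA-4, a wider gap than that of their sum. Of these 23 genes 10 were positive and 13 negative on the authors' scale in anti-CTLA-4 (median -0.53). On the library size scale 12 of them were positive (median 0.42). Of the B cell markers the authors' deposited tables called 5 higher and 0 lower in anti-CTLA-4 (Ms4a1, Fcer2a, Pou2af1, Spib and Ly6d), 0 higher and 1 lower in anti-PD-1 DANA (Blnk), and 2 higher (Fcer2a and Ly6d) and 5 lower (Cd22, Iglc1, Iglc2, Bank1 and Blnk) in Combo. For this and the marker lists below, the shares of all tested genes called higher were 2.74%, 2.43% and 3.94% in turn. The shares called lower were 1.49%, 1.32% and 3.59%. The sum of 14 dendritic cell markers was 269, 250, 304 and 183 RPKM, with Clec9a and Batf3 at 0 in all tables and no call. Most of that sum was 2 genes, so it says little about the other markers of the list. They were Ccr7 (120, 130, 162 and 53.9 RPKM in turn) and Bst2 (94.9, 72.5, 96.0 and 66.0), with estimates among these values. The sum of 15 macrophage and myeloid markers was 115, 138, 109 and 36.7 RPKM, with Adgre1, Fcgr1 and Cd14 at 0 in all tables. Of these markers the authors' deposited tables called 0 higher and 4 lower in anti-CTLA-4 (C1qa, Fcgr3, Mpeg1 and Timd4), 2 higher (Csf1r and Lgals3) and 1 lower (Fcgr3) in anti-PD-1 DANA, and 1 higher (Lgals3) and 3 lower (Lyz2, Fcgr3 and Timd4) in Combo. Of the 12 tested markers of this list, 6, 6 and 4 were positive on the authors' scale for the 3 treatments in turn. In Isotype 99.8% of the C1qa signal, 99.4% of that of Fcgr3 and 99.9% of that of Timd4 came from 1 library. The calls of these 3 genes thus rest on 1 Isotype library each. The 15 CD8 T cell markers summed to 3640, 4291, 4731 and 3493 RPKM in turn, with 1 call, Lat lower in anti-CTLA-4. That was more than each of the other lists of cell type markers in every arm. The 8 markers of CD4 T cells and other lymphocytes summed to 338, 628, 653 and 604 RPKM, with Ncr1 at 0 in all tables and Cd4 as the only call. Most of that sum was Nkg7, a cytotoxic granule gene that CD8 T cells express too, at 332 RPKM in Isotype by an estimate and 614, 644 and 599 in the treated arms. Cd4 itself stood at 2.48 RPKM in anti-CTLA-4 and at 0.0065 or less in the other arms. The part of other cell types in the class II values was not tested.

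Within an arm the class II genes and B cell markers did not share 1 library. In Combo, Ms4a1 had 94.4% of its signal in the largest library and Ly6d 99.7%, as did H2-DMb2 with 91.9%, while Ciita had 96.3% in the smallest library. In anti-CTLA-4, H2-DMb2 had 75.9% in the largest library, while Ms4a1 had 60.2% in the smallest library, as Ciita had 92.7%. Over the B cell markers with recovered reads, the top library was the largest for 8, the middle for 7 and the smallest for 3 of 18 genes in anti-CTLA-4, and 4, 2 and 3 of 9 genes in Combo. The other 6 class II genes could not be resolved by library, so it is not known which libraries carried Cd74 and the surface chains.

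**Figure D5:**
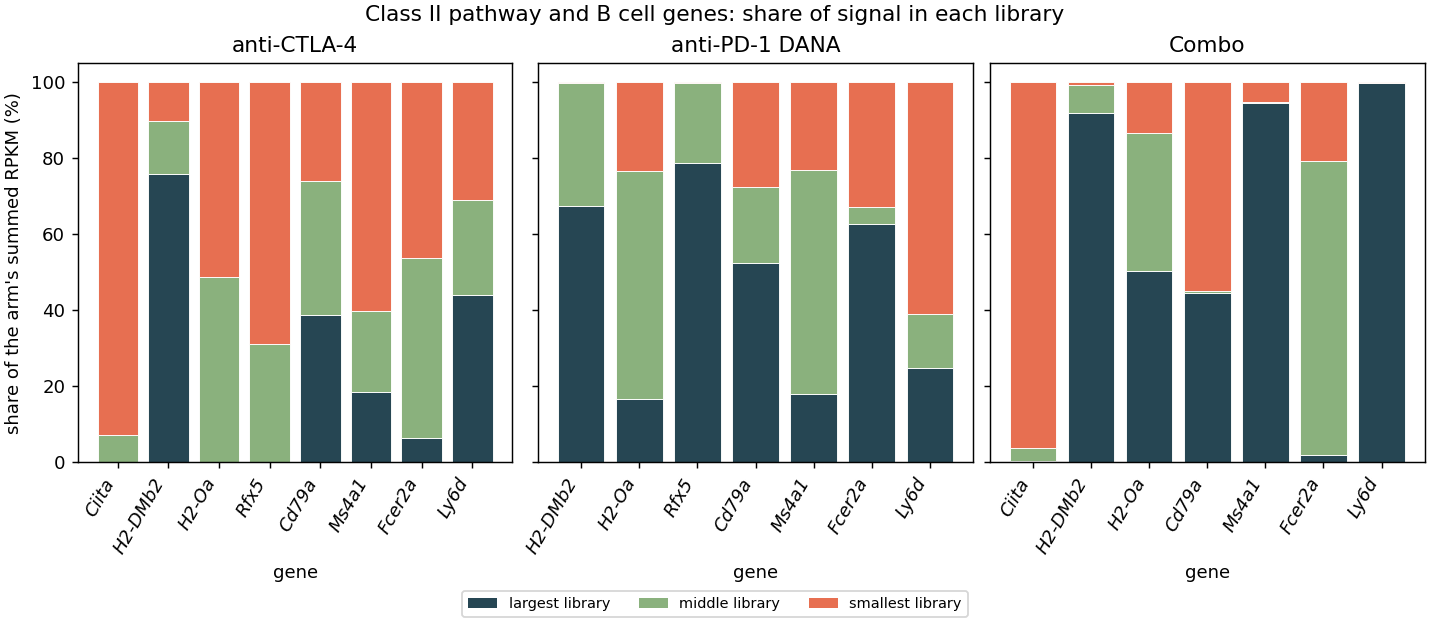
Share (%) of each gene's summed RPKM that came from the largest, middle and smallest library of an arm, for class II pathway genes and B cell markers with recovered reads. Ciita is mostly in the smallest library of anti-CTLA-4 (92.7%) and Combo (96.3%), and H2-DMb2 mostly in the largest library of all 3 treated arms.

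The genes most like Cd74 over its 3 log2 fold changes were sought among 4770 other genes with a larger mean of 5 RPKM or more in all tables. The nearest were 9530068E07Rik (distance 0.23), Slc28a2 (0.26), 1810030O07Rik (0.31), Aspscr1 (0.41) and Cct3 (0.42). Among those nearest to the median of the 8 members were Fcf1 (0.20), Eif2s1 (0.47), D16Ertd472e (0.49) and Tsc22d3 (0.49). The 8 members were left out of the search, so none of them could appear. B cell markers under 5 RPKM in any table could not appear either. No other B cell marker and no further gene of the class II pathway was among the genes named. In any case, 3 fold changes that share an Isotype arm hold little information on likeness.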

How the data were processed

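RNA was measured in 12 libraries, 3 for each of 4 arms. Per the labels' protocols, 0.25 ng of RNA was amplified with 21 cycles after a Smart-seq2-type protocol, given Nextera adapters, sequenced on an Illumina HiSeq, with alignment and quantification in the CLC Genomics Workbench. The genome, per the submitters' processing notes, was GRCm38.p5. Neither the version of that program, nor its annotation, nor its test is given in the sources used here. Preamplification of so little RNA means that reads of a library are not independent molecules.

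For each treatment the authors deposited 1 table that compares it with isotype. The larger group mean in the deposited tables is in RPKM, a unit read from the values. In the deposited tables a positive log2 fold change, or signed fold change, means a higher treated arm. The deposited tables hold p-values for 17833 tested genes, and their false discovery rates are adjusted over all 48709 listed genes. The tables hold no value per library, so the authors' comparisons were the main test, and planned count models were not fitted. The members and gene lists were chosen with earlier results of these data known. Named genes were all 8 members, list genes called in any table (else the 2 most abundant of a list), and H2-Ea, H2-Oa, H2-Ob, Cd4, Lag3, Ifng, Ctss and Rfx5; some genes these rules would name, called ones included, are not reported here.

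The remaining steps were computed here, and most of them were set with the data in view. A standard error was taken as the size of the log2 fold change divided by the normal quantile that its p-value gives, which assumes a Wald test. A mean was given to Isotype where 2 tables share it or the treated arm was lower, and to the treated arm where it exceeded the smallest of the 3 tables. Of 22903 means given to a treated arm, 99.0% had a positive change on the library size scale. That scale was set by the median gap between RPKM ratios and fold changes over 418, 229 and 177 genes with both means known and an Isotype mean of 5 RPKM or more. Contrasts between treatments used equal variances of group means, since the 3 errors of each member lay within 5% of each other, with a two-sided normal test and Benjamini-Hochberg adjustment over all listed genes.

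The steps that 1 read makes in low RPKM means gave the library sizes, with exon lengths from GENCODE mouse release M21 (99.3% of genes matched). They ran from 14729713 to 42556869 reads: 23973359 to 32867235 in Isotype, 14729713 to 29583827 in anti-CTLA-4, 24233466 to 31943900 in anti-PD-1 DANA and 24594651 to 42556869 in Combo. The labels' protocols state a far smaller number of reads per library, close to the number of listed genes, which conflicts with these sizes and was not used as depth. Whole reads per library were then solved from a mean given to 10 decimals, and accepted where the solution was unique and chance allowed at most 0.05 solutions. This solved 77.3% of 25866 means, against 0.375% with exon lengths off by 1 base. For Ciita and H2-DMb2 the exon length (5254 and 1710 bases) was found together with the reads. Scripts were tested on simulated data. Python 3.11.15, pandas 2.3.3, NumPy 2.4.6, SciPy 1.17.1, numba 0.67.0, matplotlib 3.10.9 and Biopython 1.88 were used.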

Additional observations from a re-analysis of the deposited data

How the results depend on the processing

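No paired analysis was possible because the tables hold no value per library with a replicate number. Replicate blocks, edgeR and DESeq2 fits, count filters, pseudocounts and fits without a library were therefore not run. On the library size scale 3 of 48 member values reversed: H2-Eb1 for anti-CTLA-4 (0.59, from -0.36), Cd74 for Combo against anti-PD-1 DANA (-0.52, from 0.19) and H2-DMb2 for the same contrast (-0.33, from 0.37), all short of a call. Members called, 0 as reported, became 1 in anti-CTLA-4, 2 in anti-PD-1 DANA and 1 in Combo when adjusted over tested genes, and on the library size scale 1 in anti-CTLA-4, 1 in anti-PD-1 DANA and 2 in Combo against anti-CTLA-4. All genes called for anti-CTLA-4 (754) became 1616 over tested genes, 27 with Bonferroni adjustment, 1367 on the library size scale and 444 at 5 RPKM or more. For anti-PD-1 DANA (669) they became 1596, 34, 1217 and 413, and for Combo (1343) 2238 over tested genes, 74 with Bonferroni adjustment and 777 at 5 RPKM or more. Leaving out 1 library of recovered reads moved the mean RPKM of Ciita between 0.465 and 6.38 in anti-CTLA-4, 0.0461 and 1.25 in Combo and 0.0145 and 0.0533 in Isotype, and of H2-DMb2 between 2.29 and 8.54 in anti-CTLA-4, 5.43 and 16.7 in anti-PD-1 DANA and 1.08 and 13.2 in Combo. The Isotype value of Ciita rests on 15 reads.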
